A study of Mus musculus with 12 samples.

Results

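*Foxp3*, *Ikzf2*, *Ikzf4*, *Izumo1r* and *Nrp1*, 5 genes by which regulatory T cells (Tregs) are recognised, were taken by symbol from RNA-seq tables that list 24421 gene rows. They were chosen by name, with earlier results of these data known. The Tregs were sorted from NOD mice, a strain that develops autoimmune diabetes, at an age of 6.8 weeks. The mice were retrogenic, so that their T cells carried introduced T cell receptors (TCRs), here 4-8 and 12-4.4m1, which both recognise insulin. The study names high affinity and low affinity Tregs; 4-8 is the receptor of high affinity and 12-4.4m1 that of low affinity. The 4 groups were islet 4-8, islet 12-4.4m1, spleen 4-8 and spleen 12-4.4m1, with 3 libraries each and 12 in all. Each affinity is represented by 1 receptor, so its effect and that of other properties of the receptor cannot be told apart. The labels do not say whether libraries came from separate mice, nor which markers the sort used, so the tests measure the spread between these libraries.

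Tregs are CD4 T cells that restrain immune responses, and in the pancreas of NOD mice they delay the attack on insulin-producing beta cells. *Foxp3*, on the X chromosome, encodes the forkhead transcription factor that defines the lineage. *Ikzf2* encodes Helios and *Ikzf4* encodes Eos, zinc finger factors of the Ikaros family that work with Foxp3, Eos as a corepressor partner that keeps genes of other T cells silent. *Izumo1r*, formerly *Folr4*, encodes folate receptor 4, a surface protein carried at high level by mouse Tregs. *Nrp1* encodes neuropilin-1, a coreceptor of semaphorins and VEGF that binds Sema4a on other cells and marks thymus-derived Tregs of mice.

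On build GRCm38, in the GENCODE vM21 annotation, *Foxp3* is on the plus strand of chromosome X at 7573644 to 7595245 and *Ikzf2* on the minus strand of chromosome 1 at 69531214 to 69687245. *Ikzf4* is on the minus strand of chromosome 10 at 128630843 to 128645991, *Izumo1r* on the minus strand of chromosome 9 at 14885814 to 14903949 and *Nrp1* on the plus strand of chromosome 8 at 128358604 to 128503363, and all are protein-coding. Helios and Eos are close relatives, so the stretch that aligns in the coding sequences of the family members is shown to tell how far reads of one could be taken for the other. It starts at base 343 of the coding sequence of *Ikzf2*, base 484 of *Ikzf4* and base 358 of both *Ikzf1* and *Ikzf3*, and 90 bases are printed 5′ to 3′ from the transcripts of that annotation, with capitals at bases that differ from *Ikzf2*.
Ikzf2: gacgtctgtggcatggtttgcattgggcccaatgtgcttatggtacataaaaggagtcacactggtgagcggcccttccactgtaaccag
Ikzf4: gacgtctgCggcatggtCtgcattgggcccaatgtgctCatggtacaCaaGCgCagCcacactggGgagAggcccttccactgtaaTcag
Ikzf1: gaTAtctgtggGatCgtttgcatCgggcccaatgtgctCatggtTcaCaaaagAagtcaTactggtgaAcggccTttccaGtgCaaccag
Ikzf3: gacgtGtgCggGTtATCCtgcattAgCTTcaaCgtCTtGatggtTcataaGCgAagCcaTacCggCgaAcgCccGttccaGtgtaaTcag
Within this window *Ikzf4* differed from *Ikzf2* at 11 bases, *Ikzf1* at 14 and *Ikzf3* at 29. The longest run that the whole coding sequence of *Ikzf4* shares with that of *Ikzf2* was 20 bases, so no stretch of 50 bases belongs to both genes. Of the 50-base words of its exons, *Ikzf2* shared 0.819% with any other gene, *Ikzf4* 0.53%, *Izumo1r* 0 and *Nrp1* 0.319%. *Foxp3* shared 23.1%, with genes whose exons overlap its own: *Ccdc22*, *Ppp1r3f* and *Gm36995* on the opposite strand and *Flicr* on the same strand. Strand was not stated for the counting, so reads in these overlaps cannot be assigned from the sequence alone. The mean normalized counts of *Ccdc22* and *Ppp1r3f* lay between 8.7 and 26.5, against 572 to 900 for *Foxp3*.

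The 12 libraries were deposited in 4 tables of 6, each for 1 pair of groups and each normalized on its own, so levels and tests stay within a table, and each group occurs in 2 tables. The total count per library cannot be read from these log2 values. The authors' mean normalized counts summed to 898995 for the islet TCR table, 1316454 for the spleen TCR table, 1284347 for the tissue table of 4-8 and 918913 for that of 12-4.4m1. Genes with a mean normalized count of at least 10 were tested, which left 8212, 9108, 8981 and 8438 genes in that order. All 5 identity genes were among them in all 4 tables. Of 8 T cell markers that check the label, 7 were tested in each table, *Cd4*, *Cd3e* and *Lck* among them. Defining markers of B cells, NK cells, CD8 T cells, fibroblasts and erythroid cells were mostly below that count, and the insulin genes *Ins1* and *Ins2* were below it in all 4 tables. The dendritic cell markers *H2-Aa* and *Cd74* were above it in all 4. The summed linear level of that list was 353 to 720 in the islet and 664 to 1161 in the spleen TCR table, with 0 called. The islet hormone gene *Gcg* was above the filter in the spleen TCR table (-0.47) and the 12-4.4m1 tissue table (-0.72), not called. The endothelial marker *Pecam1* was called lower in islet than in spleen 4-8 (-0.67). The part of these transcripts was not tested. Transcripts of pancreatic acinar cells were higher in islet libraries. Of the tested markers 4 of 6 were called higher in 4-8 and 4 of 5 in 12-4.4m1, where 5.14% and 4.63% of all genes were. Their summed linear level over 8 markers was 84.4 to 145 in islet and 53.8 to 60.3 in spleen libraries of 4-8, and 141 to 179 in islet and 61.6 to 68.2 in spleen libraries of 12-4.4m1, and the part of this in the tissue differences below was not tested. In islets the titles have 2 styles: 4-8 replicate 2 and 12-4.4m1 replicates 1 and 2 are titled as Treg and the other 3 libraries as R. *Xist*, the RNA of the inactive X chromosome, was 9.39 to 10.48 in the 3 Treg-titled libraries and 6.51 to 7.50 in the 3 R-titled ones. One 4-8 column of the islet TCR table carries a number that no title has, and it is called the unnumbered library. Islet 4-8 replicate 3 is not named in that table. *Foxp3* was 9.04 in the unnumbered library and 9.63 in replicate 3 of the 4-8 tissue table. For replicate 1 it was 9.02 and 9.61 in the same 2 tables. The unnumbered library may thus be replicate 3, which was not tested. For both spleen libraries numbered 2 the description points to the tissue table of the opposite receptor, and the titles, which the columns follow, were used.

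Foxp3 was among the abundant transcripts of all 4 groups, and its level was near the same in each. Per length of transcript, in the authors' FPKM, which gives 1 value a group and no replicate spread, *Foxp3* was 159 and 163 in islet 4-8, 158 and 165 in islet 12-4.4m1, 170 and 163 in spleen 4-8 and 154 and 149 in spleen 12-4.4m1, the 2 values coming from the 2 tables that hold each group. At least 97.1% of the listed genes had a lower FPKM than *Foxp3* in every group. *Izumo1r*, listed under *Folr4* there, was the highest of the 5 in most groups, at 313 and 323 FPKM in islet 4-8, 290 and 303 in islet 12-4.4m1, 247 and 237 in spleen 4-8 and 209 and 202 in spleen 12-4.4m1. *Ikzf2* was 126 and 130 FPKM in islet 4-8, 154 and 161 in islet 12-4.4m1, 175 and 168 in spleen 4-8 and 215 and 207 in spleen 12-4.4m1, where it stood level with *Izumo1r*. The 2 Ikaros family factors thus differed widely in level. *Ikzf4* was 15.1 and 15.6 FPKM in islet 4-8, 21.9 and 22.9 in islet 12-4.4m1, 15.4 and 14.8 in spleen 4-8 and 20.9 and 20.1 in spleen 12-4.4m1. *Nrp1* was the lowest of the 5, at 4.39 and 4.52 FPKM in islet 4-8, 11.9 and 12.4 in islet 12-4.4m1, 6.36 and 6.11 in spleen 4-8 and 11.9 and 11.5 in spleen 12-4.4m1. In a bulk sample, fewer cells that express a gene and less RNA per cell cannot be told apart.

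**Figure D1:**
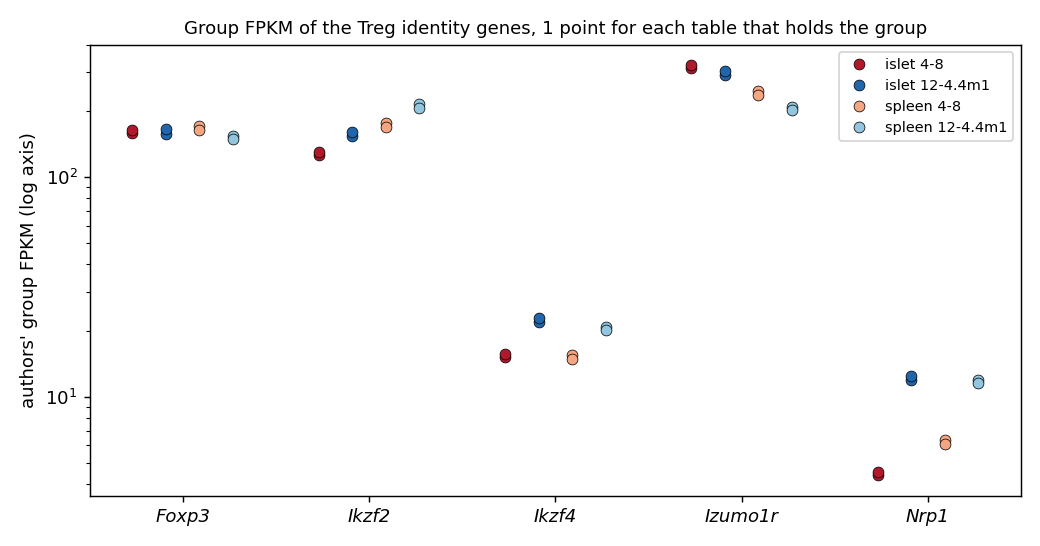
Authors' FPKM of the 5 identity genes (vertical axis, log scale) in islet 4-8, islet 12-4.4m1, spleen 4-8 and spleen 12-4.4m1 Tregs, with 1 point for each of the 2 tables that hold the group and no replicate error. Foxp3 lies between 149 and 170 in all groups, while Nrp1 is 4.39 to 6.36 in the 4-8 groups and 11.5 to 12.4 in the 12-4.4m1 groups.

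None of the 5 genes passed at an adjusted p of 0.05 in any of the 4 comparisons. Across all genes tested, limma called 0.365% in the islet TCR table, 0.428% in the spleen TCR table, 7.98% in the tissue table of 4-8 and 6.81% in that of 12-4.4m1. At an unadjusted p under 0.05 the identity genes numbered 1 of 5 in islets (*Nrp1*), 1 of 5 in spleen (*Nrp1*), 0 of 5 between the tissues for 4-8 and 2 of 5 between the tissues for 12-4.4m1 (*Ikzf2* and *Izumo1r*), where 6.78%, 7.93%, 22.2% and 20.3% of all genes had one. Counts over 5 genes are too small to be read against these shares. The authors' deposited DESeq2 tables called none of the 5 either, with a lowest adjusted p of 0.225, and their deposited Cuffdiff tables called 1, *Izumo1r* between the tissues for 12-4.4m1. The median difference of the 5 genes was -0.24, -0.05, -0.06 and 0.08 on the log2 scale in the 4 comparisons in that order, and that of all genes tested lay between -0.01 and 0.00.

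**Figure D2:**
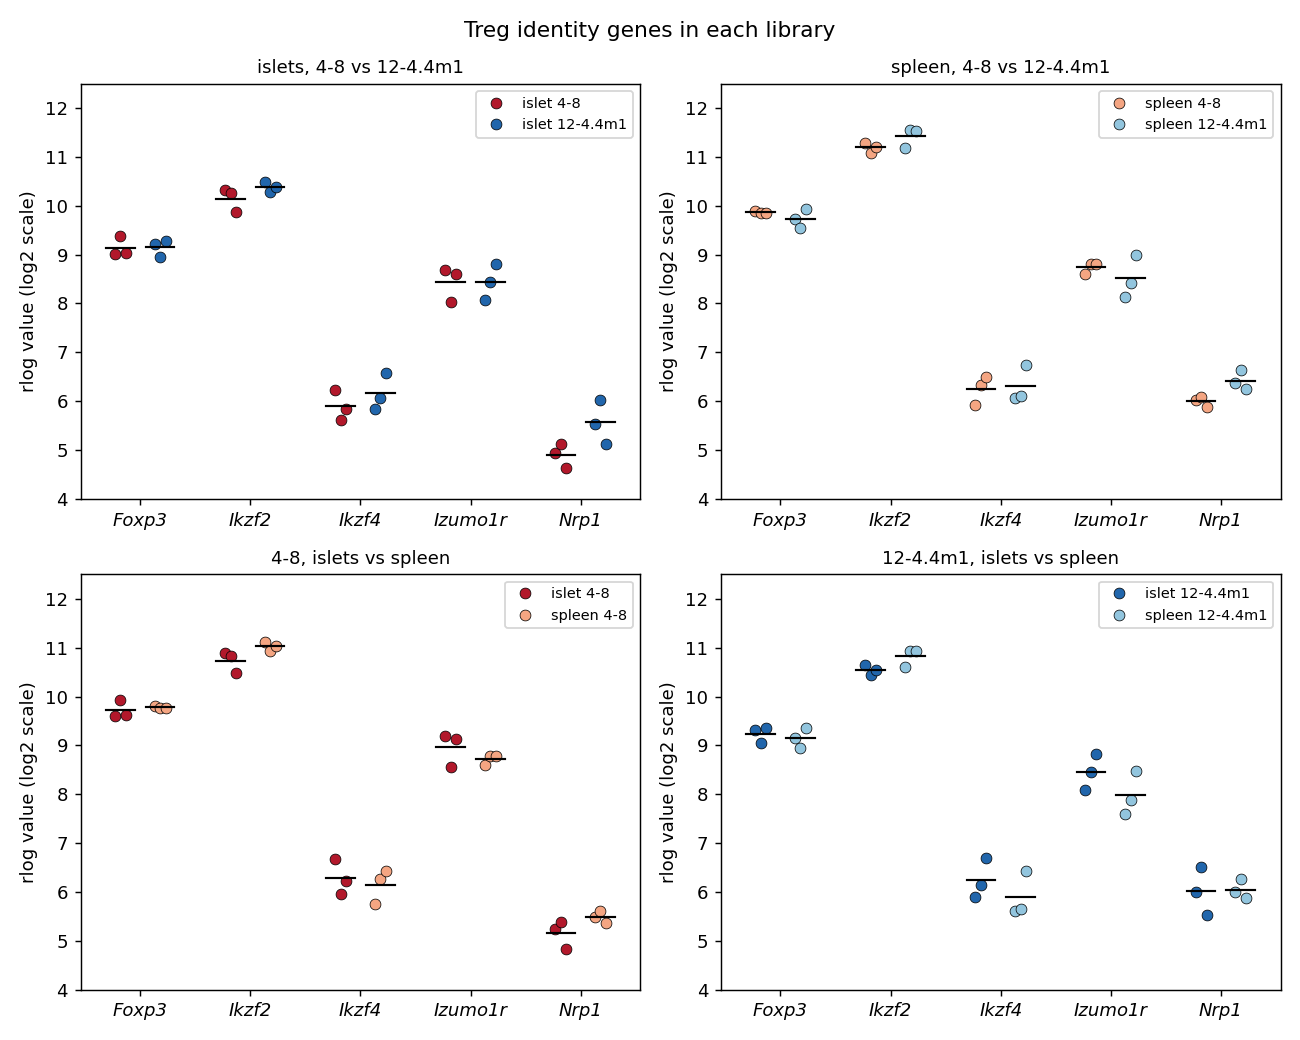
Regularized log (rlog) values on a log2 scale (vertical axis) of the 5 identity genes in each library, 1 panel for each separately normalized table, with 3 points a group and a bar at the group mean. The groups of Nrp1 are apart in both TCR panels and those of Ikzf2 in the 4-8 tissue panel, and all other pairs of groups overlap.

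The comparison of 4-8 with 12-4.4m1 asks whether Tregs of a high affinity and a low affinity receptor keep the same identity genes in the tissue that holds the antigen and away from it. *Foxp3* did not differ detectably in either tissue. In islets its rlog value, a log2 scale on which the authors shrink low counts, was 9.02, 9.38 and 9.04 in the 4-8 libraries and 9.22, 8.95 and 9.27 in the 12-4.4m1 libraries. In spleen it was 9.90, 9.86 and 9.86 in 4-8 and 9.72, 9.54 and 9.94 in 12-4.4m1. The groups overlapped in both tissues, and the 3 spleen 4-8 libraries were the closest together of any. The difference was -0.0050 ± 0.19 SE in islets, with a 95% confidence interval of 0.767-fold to 1.30-fold, and 0.14 ± 0.12 SE in spleen, with an interval of 0.933-fold to 1.30-fold (limma adjusted p = 0.996 and 0.835).

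*Ikzf2* was lower in 4-8 in both tissues by amounts that did not pass. It was 10.32, 10.26 and 9.86 in islet 4-8 and 10.49, 10.28 and 10.38 in islet 12-4.4m1, where 1 library, the unnumbered one, lay below all the others. In spleen it was 11.29, 11.08 and 11.21 in 4-8 and 11.18, 11.55 and 11.53 in 12-4.4m1, with the groups overlapping through 12-4.4m1 replicate 1. The differences were -0.24 ± 0.18 SE (limma adjusted p = 0.849) and -0.22 ± 0.11 SE (limma adjusted p = 0.631). The Helios relative *Ikzf4* showed a wide spread between replicates, from 5.62 to 6.58 over the 6 islet and from 5.92 to 6.74 over the 6 spleen libraries. Its within-group SD was larger than that of 89.9% of tested genes in islets and 99.1% in spleen. Its differences were -0.27 ± 0.21 SE and -0.05 ± 0.16 SE (limma adjusted p = 0.870 and 0.971).

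*Nrp1* stood out among the 5 as the gene whose libraries did not overlap between the TCRs in either tissue, and in both it was lower in 4-8. In islets it was 4.95, 5.12 and 4.64 in 4-8 and 5.54, 6.03 and 5.13 in 12-4.4m1, so that the highest 4-8 library and the lowest 12-4.4m1 library nearly touched. That 4-8 library is the only Treg-titled one of its group, and that 12-4.4m1 library the only R-titled one. *Nrp1* was higher in the Treg-titled islet libraries (0.49 ± 0.20 SE, limma adjusted p = 0.281), and the part of title style in the islet difference was not tested. In spleen *Nrp1* was 6.02, 6.09 and 5.88 in 4-8 and 6.37, 6.64 and 6.25 in 12-4.4m1. The groups did not overlap in 11.9% of all genes tested in islets and in 13.3% in spleen. The difference was -0.67 ± 0.21 SE in islets, which is 1.59-fold lower in 4-8 (unadjusted p = 0.00420, limma adjusted p = 0.305), and -0.42 ± 0.13 SE in spleen, 1.34-fold lower (unadjusted p = 0.00305, limma adjusted p = 0.231). About 1.3% of tested genes had a smaller p in each. Neither passed over all genes. The summed acinar level beside it was 147 to 206 in islet 4-8 and 205 to 250 in islet 12-4.4m1. Of 7 tested acinar markers 0 were called, where 0.365% of all genes were. At an unadjusted p under 0.05 there was 1, where 6.78% of all genes had such a p. The part of this acinar level was not tested. Over the other settings tried, the authors' tables included, the adjusted p (limma, DESeq2 or Cuffdiff) ran from 0.0638 to 0.962 in islets and from 0.0771 to 0.803 in spleen. The authors' deposited DESeq2 tables gave log2 differences of -0.89 in islets and -0.62 in spleen, turned here to 4-8 over 12-4.4m1 (adjusted p = 0.826 and 0.773). By the authors' deposited Cuffdiff tables *Nrp1* was 2.71-fold lower in islet 4-8 (4.39 against 11.9 FPKM, q = 0.111) and 1.88-fold lower in spleen 4-8 (6.36 against 11.9 FPKM, q = 0.0771). Its mean normalized count was 43.6 in the islet and 77.4 in the spleen table.

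*Izumo1r* had the same mean in both islet groups, 8.44 ± 0.36 in 4-8 and 8.44 ± 0.38 in 12-4.4m1 (SD, n = 3 each), and the groups overlapped. Its values were 8.68, 8.02 and 8.61 in islet 4-8 and 8.06, 8.44 and 8.82 in islet 12-4.4m1. In spleen its mean was 8.74 ± 0.12 for 4-8 libraries and 8.51 ± 0.45 for 12-4.4m1 libraries (SD, n = 3 each), a difference of 0.23 ± 0.15 SE (limma adjusted p = 0.764). In spleen 12-4.4m1, replicate 1 at 8.12 was the lowest and replicate 3 the highest of all 6 spleen libraries.

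**Figure D3:**
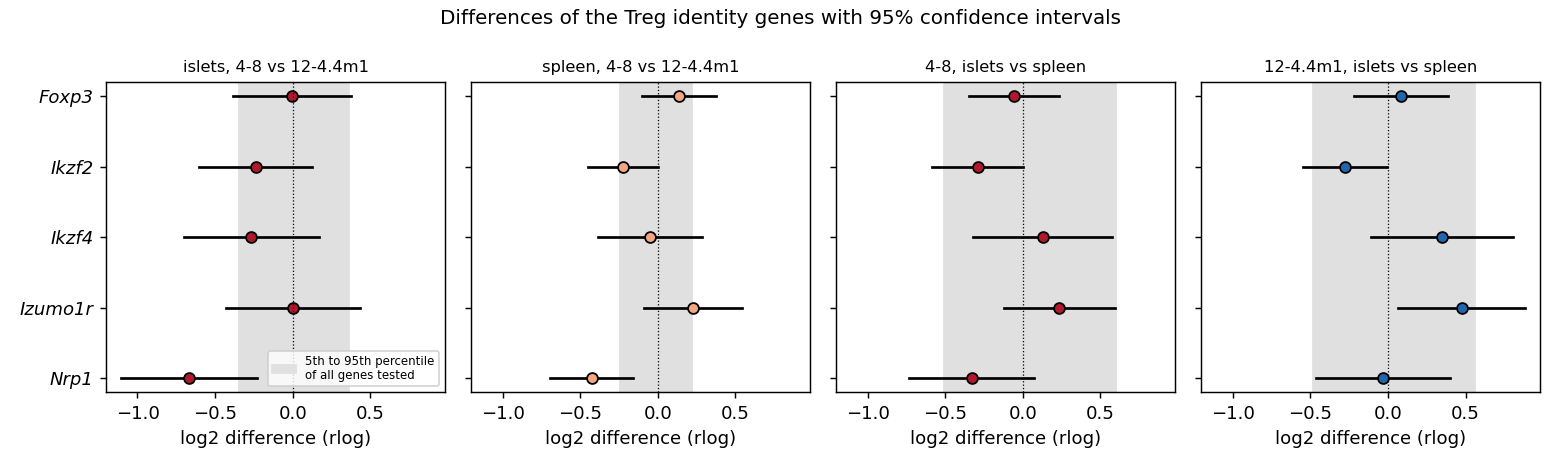
Log2 differences of the 5 identity genes (horizontal axis, rlog units) with 95% confidence intervals in the 4 comparisons, as 4-8 minus 12-4.4m1 and islets minus spleen, over a grey band from the 5th to the 95th percentile of all genes tested. Nrp1 lies outside the band in both TCR comparisons, at -0.67 in islets and -0.42 in spleen, and Foxp3 lies between -0.06 and 0.14 in all 4.

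Setting islets against spleen asks how Tregs of 1 receptor differ between the target tissue and a lymphoid organ. *Foxp3* was 9.61, 9.93 and 9.63 in islet 4-8 and 9.81, 9.77 and 9.76 in spleen 4-8, a difference of -0.06 ± 0.14 SE (0.785-fold to 1.17-fold, limma adjusted p = 0.854). In 12-4.4m1 it was 9.31, 9.04 and 9.36 in islets and 9.14, 8.95 and 9.36 in spleen, a difference of 0.08 ± 0.15 SE (0.860-fold to 1.31-fold, limma adjusted p = 0.812). Islet and spleen libraries overlapped for both receptors. Of 7 tested T cell markers 2 were called higher in islets for 4-8, *Cd4* and *Cd3e*, and 1 for 12-4.4m1, *Cd4*, with 0 called lower, where 5.14% and 4.63% of all genes were higher. The differences of 6 of the 7 were above 0 for 4-8 and those of 5 for 12-4.4m1. *Cd4* was higher by 0.71 ± 0.15 SE for 4-8 and 0.86 ± 0.14 SE for 12-4.4m1 (limma adjusted p = 0.00655 and 0.000241), and its part in the values of other genes was not tested.

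*Ikzf2* was lower in islets than in spleen for both receptors, and again did not pass. For 4-8 it was 10.89, 10.83 and 10.48 in islets and 11.12, 10.92 and 11.04 in spleen, with no overlap, as in 27.4% of the genes tested (-0.29 ± 0.14 SE, unadjusted p = 0.0517, limma adjusted p = 0.230). For 12-4.4m1 it was 10.65, 10.45 and 10.55 in islets and 10.61, 10.94 and 10.94 in spleen, where spleen replicate 1 fell among the islet libraries (-0.28 ± 0.13 SE, unadjusted p = 0.0448, limma adjusted p = 0.233). The authors' FPKM of *Ikzf2* was likewise lower in islets, at 130 against 168 for 4-8 (Cuffdiff q = 0.154) and 161 against 207 for 12-4.4m1 (q = 0.122). The tissue differences of the 2 receptors come from separate tables and were not tested against each other. *Ikzf4* was 0.13 ± 0.21 SE for 4-8 and 0.35 ± 0.22 SE for 12-4.4m1, islets minus spleen (limma adjusted p = 0.780 and 0.412), with all groups overlapping.

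*Izumo1r* had the lowest adjusted p of the 5 between the tissues in 12-4.4m1, while in 4-8 that of *Ikzf2* and *Nrp1* was lower. In 12-4.4m1 it was 8.08, 8.45 and 8.83 in islets and 7.59, 7.87 and 8.48 in spleen, or 1.39-fold higher in islets with overlap (0.47 ± 0.20 SE, unadjusted p = 0.0247, limma adjusted p = 0.165). In 4-8 it was 9.20, 8.55 and 9.13 in islets and 8.60, 8.79 and 8.79 in spleen, a difference of 0.23 ± 0.17 SE (limma adjusted p = 0.454). Islet 4-8 replicate 2 lay below every other library of that table, and the other 2 islet libraries lay above every spleen library. Without it the difference was 0.44 ± 0.13 SE and passed (limma adjusted p = 0.0335; 0.0335 to 0.774 over all settings, the authors' tables included). In 12-4.4m1 the difference was 0.72 ± 0.20 SE and passed without spleen replicate 3 (limma adjusted p = 0.0325; 0.0296 to 0.584 over all settings, the authors' tables included). The authors' deposited Cuffdiff table gave 303 FPKM in islets and 202 in spleen for 12-4.4m1 and called the difference (q = 0.0296), and 323 and 237 FPKM for 4-8 (q = 0.113).

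*Nrp1* was 5.24, 5.39 and 4.84 in islet 4-8 and 5.49, 5.61 and 5.36 in spleen 4-8 (-0.33 ± 0.19 SE, limma adjusted p = 0.326). It was 5.999, 6.52 and 5.54 in islet 12-4.4m1 and 6.004, 6.26 and 5.88 in spleen 12-4.4m1 (-0.03 ± 0.21 SE, limma adjusted p = 0.958). Islet and spleen libraries overlapped for both receptors, and the 3 islet 12-4.4m1 libraries spread over almost 1 log2 unit.

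Within islets, *Izumo1r* was split by how the libraries are titled. Its rlog value was 8.02 to 8.44 in the 3 Treg-titled libraries and 8.61 to 8.82 in the 3 R-titled ones, with no overlap, as in 17.6% of genes tested. With the TCR in the fit the difference was -0.60 ± 0.17 SE and did not pass (limma adjusted p = 0.0785), where 0.731% of genes did and *Xist* differed by 2.87 ± 0.22 SE (limma adjusted p = 4.74e-13). *Ikzf4* was lower by a similar amount in the Treg-titled libraries (-0.52 ± 0.19 SE, limma adjusted p = 0.201) and *Nrp1* higher (0.49 ± 0.20 SE, limma adjusted p = 0.281). *Foxp3*, which is X-linked, differed by 0.08 ± 0.17 SE between the styles (limma adjusted p = 0.894), and *Ikzf2* by 0.09 ± 0.16 SE (limma adjusted p = 0.874). With title style in the fit, *Izumo1r* passed between the tissues, with 0.44 ± 0.13 SE for 4-8 (limma adjusted p = 0.0345) and 0.85 ± 0.24 SE for 12-4.4m1 (limma adjusted p = 0.0322), but all spleen libraries have the R style. The 4-8 value therefore equals the one without islet replicate 2, and the 12-4.4m1 value sets islet replicate 3 alone against the 3 spleen libraries, with the lone library assumed to vary like the others. What the style stands for is not stated, and its part in these values was not tested.

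**Figure D4:**
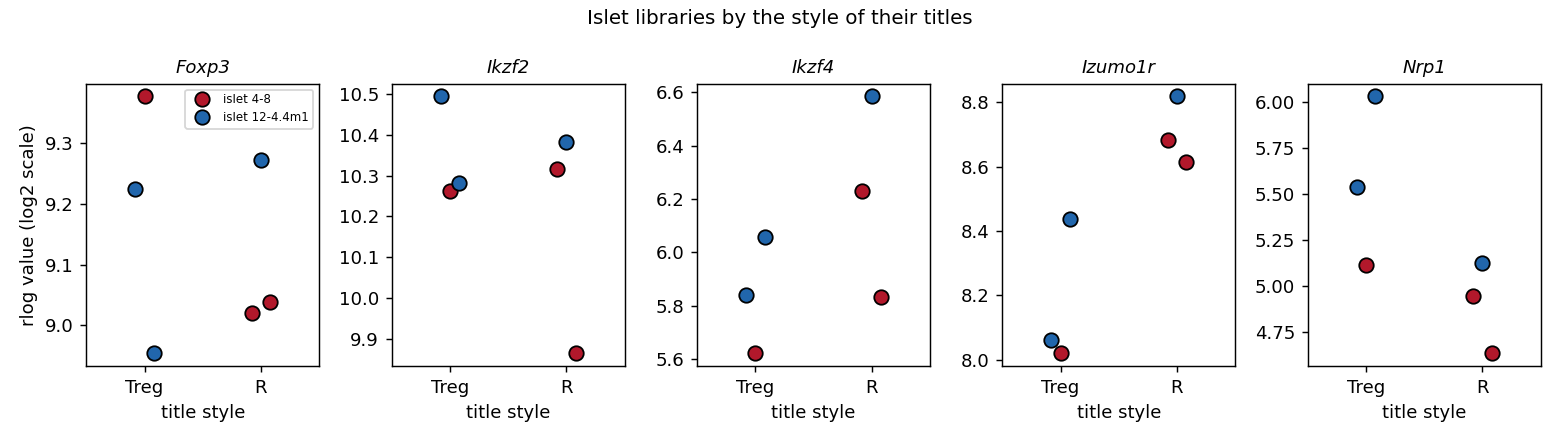
Rlog values (vertical axes, log2 scale, a separate range for each gene) of the 5 identity genes in the 6 islet libraries, by the style of the library title (horizontal axis) and coloured by TCR. The styles are apart for Izumo1r, at 8.02 to 8.44 in Treg-titled and 8.61 to 8.82 in R-titled libraries, and overlap for Foxp3 and the other 3 genes.

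Taking the mean of the 4 correlations over the 6 libraries of each table, *Ikzf4* and *Izumo1r* went together (mean r = 0.83, from 0.77 to 0.96), and *Foxp3* had a mean r between -0.29 and 0.12 with each of the other 4. Behind those means the r of *Foxp3* changed sign between tables for each of the 4, and for *Izumo1r* it ran from -0.96 in the 4-8 tissue table to 0.70 in the spleen TCR table. The tables share libraries, and libraries share tissue, TCR and title style, so these values describe the libraries. Among the 7928 genes tested in all 4 tables, those most like *Foxp3* were *Zfp609* (0.86), *Fam160b2* (0.85), the histone chaperone gene *Hira* (0.85), *Ndel1* (0.83) and *Polr2m* (0.83). Those most like *Ikzf2* were *Zfp445* (0.92), *Kcnq1ot1*, a long noncoding RNA (0.90), and *Pnrc2* (0.87), and those most like *Ikzf4* were *Rcan3* (0.89), *Zdhhc5* (0.88) and *Ticrr* (0.87). Those most like *Izumo1r* were *Mif*, the gene of macrophage migration inhibitory factor (0.92), *Naca* (0.90) and *Srp19* (0.89), and those most like *Nrp1* were the condensin gene *Smc2* (0.86), *Cnot2* (0.85) and *Ehd3* (0.85).

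While the identity genes did not pass, many other genes known from Tregs did so between the tissues. Of 23 tested Treg signature genes, 11 were higher and 1 was lower in islet than in spleen 4-8 Tregs, and of 22 tested, 8 were higher and 0 lower in islet than in spleen 12-4.4m1 Tregs. Among all genes 5.14% were higher and 2.84% lower for 4-8, and 4.63% and 2.18% for 12-4.4m1. The list had a median difference of 0.68 and 0.38, and the lists were chosen with earlier results of these data known. *Ctla4*, the inhibitory receptor that competes with CD28, was 10.71 ± 0.17 in islets and 8.69 ± 0.26 in spleen for 4-8 (2.03 ± 0.15 SE, limma adjusted p = 1.52e-07) and 10.05 ± 0.16 and 7.83 ± 0.30 for 12-4.4m1 (2.21 ± 0.16 SE, limma adjusted p = 2.23e-10), n = 3 each. The chemokine receptor *Ccr8* differed by 2.30 ± 0.19 SE for 4-8 and 1.88 ± 0.24 SE for 12-4.4m1 (limma adjusted p = 4.27e-07 and 5.93e-06). The cytokine *Il10* rose by 3.04 ± 0.29 SE for 4-8 (limma adjusted p = 2.41e-06), and the costimulator *Icos* by 1.02 ± 0.16 SE for 12-4.4m1 (limma adjusted p = 9.55e-05). The inhibitory receptor *Tigit* rose by 1.75 ± 0.18 SE for 4-8 and 1.29 ± 0.20 SE for 12-4.4m1 (limma adjusted p = 5.25e-06 and 0.000108). *Ebi3*, a subunit of IL-35, was the 1 lower gene, in 4-8 (-0.78 ± 0.19 SE, limma adjusted p = 0.0175), and is named to complete the count; without spleen replicate 1 or 2 there was 0 lower. Between the TCRs, 1 of 23 was higher in islet 4-8, *Il10* (1.33 ± 0.29 SE, limma adjusted p = 0.0301), where 0.256% of all genes were higher. In islets 9 of 23 had an unadjusted p under 0.05, where 6.78% of all genes had one. The authors' deposited DESeq2 table called 2 of 23 higher there, and their Cuffdiff table called 3 of 21 higher and 1 lower. Limma called 0 of 21 in spleen, where 10 had an unadjusted p under 0.05, against 7.93% of all genes. In spleen the authors' deposited DESeq2 table called 0 of 21 as well, and their Cuffdiff table called 2 of 20 higher and 2 lower. The *Il10* call did not hold without 4-8 replicate 1, without the unnumbered library, or without 12-4.4m1 replicate 1 or 2, each of which left 0 of 23. It did not hold with robust estimation (0 of 23) or with a minimum count of 50 (0 of 19) either. Without the spleen libraries numbered 2, 10 signature genes were higher and 0 lower for 4-8, and 7 and 0 for 12-4.4m1.

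**Figure D5:**
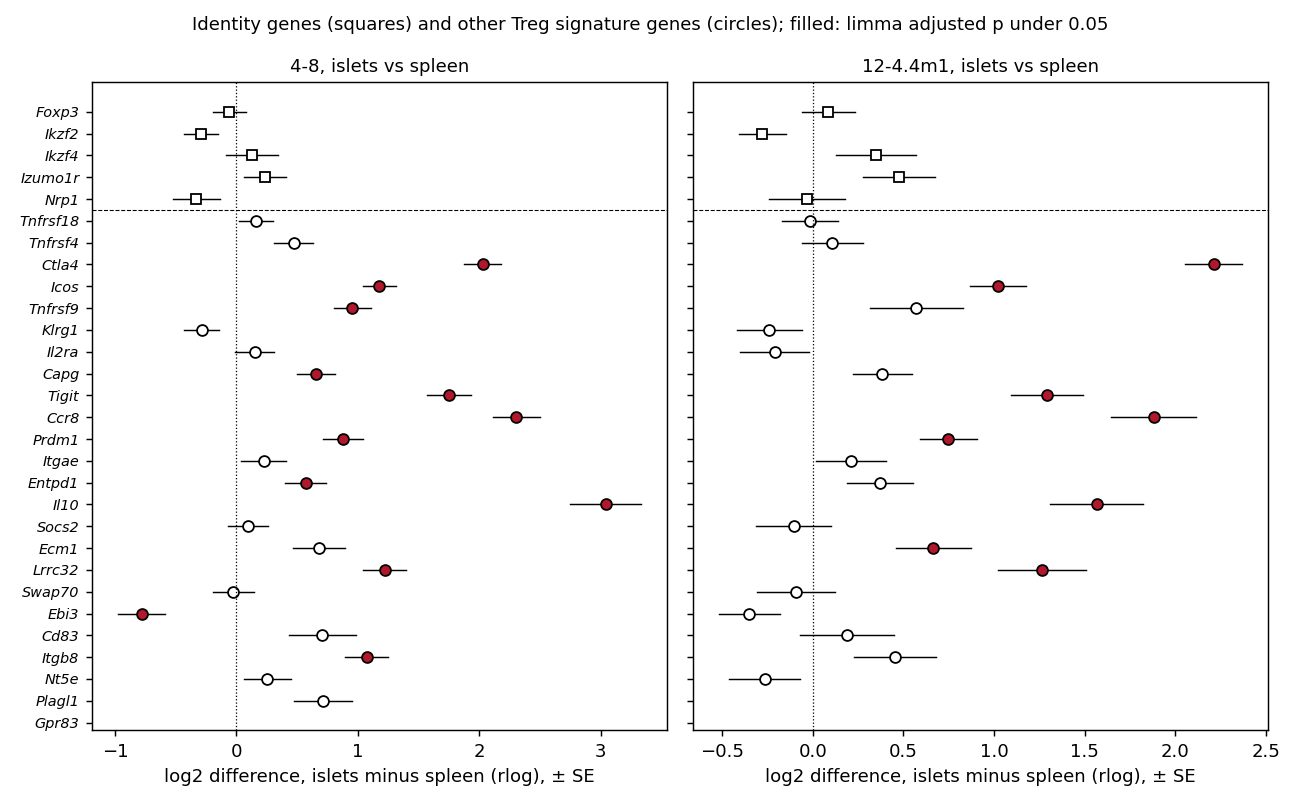
Log2 differences, islets minus spleen (horizontal axis, rlog units, with SE), of the 5 identity genes (squares, above the dashed line) and of the other Treg signature genes (circles) for 4-8 and 12-4.4m1, each panel with its own range. Filled symbols passed at a limma adjusted p of 0.05: none of the squares, 12 circles for 4-8 and 8 for 12-4.4m1; genes without a symbol were below the count filter.

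Of 24 tested genes that act with Foxp3 or control it, limma called 0 between the TCRs in islets, with 6 at an unadjusted p under 0.05. It called 0 of 23 in spleen, also with 6. Among all genes 6.78% in islets and 7.93% in spleen had such a p. The authors' deposited DESeq2 tables called 1 of these 24, higher in islet 4-8, and 0 of 23 in spleen, and their Cuffdiff tables called 0 of 22 and 0 of 20. With title style or *Xist* level in the fit, limma also called 1 higher in islets. With the replicate block, or without islet 12-4.4m1 replicate 3, it called 0 higher and 1 lower in islets. Between the tissues 4 of 24 were higher and 0 lower in islet 4-8, where 5.14% of all genes were higher and 2.84% lower. In islet 12-4.4m1, 7 of 24 were higher and 1 lower, where 4.63% of all genes were higher and 2.18% lower. The nuclear receptor *Nr4a1*, induced by TCR signals, was higher by 2.27 ± 0.18 SE in 4-8 and 2.83 ± 0.22 SE in 12-4.4m1 islets (limma adjusted p = 2.21e-07 and 1.52e-09), and its relative *Nr4a3* by 2.23 ± 0.17 SE and 2.42 ± 0.19 SE (limma adjusted p = 1.52e-07 and 1.97e-09). The other 2 in 4-8 were *Irf4*, a factor of effector Tregs (1.25 ± 0.16 SE, limma adjusted p = 5.87e-05), and the deacetylase gene *Hdac7* (1.06 ± 0.15 SE, limma adjusted p = 0.000173). In 12-4.4m1 *Nfatc2*, an NFAT factor that binds Foxp3, rose by 0.89 ± 0.15 SE (limma adjusted p = 0.000329), and *Irf4* by 0.91 ± 0.18 SE (limma adjusted p = 0.00179). The 1 lower gene, *Creb1*, fell by 0.82 on the log2 scale (0.16 SE, limma adjusted p = 0.00214) and is named to complete the count. The median of the list was 0.08 for 4-8 and 0.35 for 12-4.4m1.

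The families of the identity genes held few calls, and such short lists are too small to be read against the shares of all genes. Limma called 5.14% of all genes higher in islets for 4-8 and 4.63% for 12-4.4m1. Between the TCRs it called 0.365% in islets and 0.428% in spleen. At an unadjusted p under 0.05 the shares were 6.78% (islet TCR), 7.93% (spleen TCR) and 22.2% (tissue, 4-8). Of the 5 Ikaros family genes, *Ikzf3*, which encodes Aiolos, rose in islet 12-4.4m1 Tregs (8.38 ± 0.04 against 7.52 ± 0.17 in spleen 12-4.4m1, SD, n = 3 each; 0.87 ± 0.15 SE, limma adjusted p = 0.000468), and limma called no member in the other 3 comparisons, where 0 of 5 (islet TCR), 1 of 5 (spleen TCR) and 1 of 5 (tissue, 4-8) had an unadjusted p under 0.05. The authors' deposited DESeq2 tables called 0 of 5 in these 3, and their Cuffdiff tables called 0, 1 and 1 of 5, in that order. Of 3 tested forkhead genes of the Foxp family, *Foxp4* rose in islets for both receptors, by 0.77 ± 0.22 SE in 4-8 (limma adjusted p = 0.0419) and 0.87 ± 0.18 SE in 12-4.4m1 (limma adjusted p = 0.00321). The 4-8 call was lost without any 1 of the spleen replicates or islet replicate 1 or 2. It was also lost with title style in the fit and with no count filter. *Izumo1r* was the 1 folate receptor above the count filter, since *Folr1* and *Folr2* were at 0 in all 4 tables. Of 15 ligands and partners of neuropilin-1, 6 were tested and *Tgfb1*, the cytokine TGF-beta, rose in islets for both receptors (0.92 ± 0.19 SE, limma adjusted p = 0.00545, and 0.93 ± 0.17 SE, limma adjusted p = 0.000677), the 4-8 call being lost without spleen replicate 1. Its relative *Nrp2* and the VEGF gene *Vegfa* were at 0 in all 4 tables, and the semaphorin genes *Sema3a*, *Sema3c* and *Sema3f* were below the filter. Of the genes that set or remove DNA methylation, 7 tested for 4-8 and 6 for 12-4.4m1, the demethylase gene *Tet2* rose in islets for both (0.69 ± 0.16 SE, limma adjusted p = 0.0146, and 0.90 ± 0.16 SE, limma adjusted p = 0.000547), the 4-8 call being lost without any 1 of the 3 spleen replicates.

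The IL-2 receptor and STAT5, which sustain *Foxp3*, changed in part. Of 11 tested genes limma and both of the authors' deposited tables called 0 between the TCRs in islets, with 1 at an unadjusted p under 0.05 by limma. In spleen limma called 1, the receptor chain *Il2rb*, which was higher in 4-8 (9.98 ± 0.23 against 9.40 ± 0.16 in 12-4.4m1, SD, n = 3 each, 0.57 ± 0.13 SE, limma adjusted p = 0.0391). Among all genes limma called 0.365% in islets and 0.428% in spleen between the TCRs, and 6.78% and 7.93% had an unadjusted p under 0.05. The *Il2rb* call was lost without 4-8 replicate 3, without 12-4.4m1 replicate 2 and without both libraries numbered 2. It was also lost without the variance trend and with *Xist* level in the fit. *Xist* was 7.33 to 9.46 in spleen 4-8 and 8.70 to 10.92 in spleen 12-4.4m1, and its part was not tested. In islets against spleen 2 of 11 were higher and 0 lower in 4-8 (5.14% and 2.84% of all genes), the kinase gene *Jak3* (0.95 ± 0.15 SE, limma adjusted p = 0.000448) and *Stat5a* (0.84 ± 0.17 SE, limma adjusted p = 0.00458). In 12-4.4m1 3 of 11 were higher and 1 lower (4.63% and 2.18% of all genes). *Jak3* (1.36 ± 0.15 SE, limma adjusted p = 5.39e-07), *Il2rb* (0.66 ± 0.15 SE, limma adjusted p = 0.00575) and *Stat5a* (0.74 ± 0.17 SE, limma adjusted p = 0.00893) were higher. The shared chain *Il2rg* was lower (-0.46 ± 0.13 SE, limma adjusted p = 0.0358). The *Il2rg* call was lost without islet replicate 2, without any 1 of the spleen replicates, without the variance trend, and with title style in the fit. Without spleen replicate 1 or 2, 2 were higher and not 3. Of 10 tested genes that Tregs carry at low level, limma called 0 between the TCRs in islets, with 3 at an unadjusted p under 0.05. It called 0 in spleen, with 2 at that level. Among all genes 6.78% in islets and 7.93% in spleen had such a p. The authors' deposited DESeq2 tables called 0 of 10 in both, and their Cuffdiff tables called 0 of 8 in islets and 1 of 9, higher in 4-8, in spleen. With the replicate block limma called 1 lower in islets and 1 higher in spleen. Without islet 12-4.4m1 replicate 3 it also called 1 lower in islets. This list shares genes with that of genes that act with Foxp3 or control it, so 1 gene can count in both. Between the tissues 1 of 10 was higher and 3 lower in islet 4-8 (5.14% and 2.84% of all genes). In islet 12-4.4m1, 1 was higher and 1 lower (4.63% and 2.18% of all genes). The IL-7 receptor gene *Il7r* was lower in islets for both receptors (-1.48 ± 0.18 SE in 4-8, limma adjusted p = 5.12e-05, and -1.87 ± 0.21 SE in 12-4.4m1, limma adjusted p = 7.42e-07), and the phosphatase gene *Ptpn22* was higher (0.67 ± 0.15 SE, limma adjusted p = 0.00982, and 0.74 ± 0.17 SE, limma adjusted p = 0.00633), a *Ptpn22* call lost without spleen replicate 2 or 3 in 4-8 and without spleen replicate 1 in 12-4.4m1. *Id3*, the gene of an inhibitor of E proteins, was lower in islet 4-8 (-1.42 ± 0.20 SE, limma adjusted p = 0.000173).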

How the data were processed

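RNA was measured in 12 libraries of sorted Tregs, made per the labels by Triton X-100 lysis, reverse transcription, cDNA amplification and Nextera XT. The submitters' processing notes name TopHat 1.0.0, Cufflinks, STAR 1.1.0, DESeq2 1.1.0 and DESeq with build mm10 (GRCm38), without their roles. Per the file headers, the authors deposited rlog values, on a log2 scale, for each library. The authors also deposited DESeq2 tables with the mean normalized count as signal, a log2 fold change, a Wald statistic as score and p-values, in the direction 12-4.4m1 over 4-8 and spleen over islets, turned round here. The authors' Cuffdiff tables, per the file headers, gave 1 FPKM value per group, a test statistic as score, and p and q-values. The depth of each library is not given in the sources used here.

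Each table was fitted alone with limma 3.58.1 in R 4.3.3 (lmFit, eBayes with a mean-variance trend) over genes with a mean normalized count of at least 10, on 3 against 3 libraries, 2-sided, with Benjamini-Hochberg adjustment over all genes tested and a threshold of 0.05. The script was tested on simulated data. Differences are 4-8 minus 12-4.4m1 and islets minus spleen. Rows of repeated symbols, 4 in all, and 0 columns were left out. Linear levels are 2 to the power of the rlog value. The members and lists were chosen with earlier results of these data known. Named were the 5 genes, the most alike genes by mean correlation (5 for *Foxp3*, 3 for each other), and up to 4 called genes of a list by p, predicted genes left out; a gene that completes a count was named after its value was seen. One further result of the list of genes low in Tregs is not reported here.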

Additional observations from a re-analysis of the deposited data

How the results depend on the processing

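Over the settings tried, the authors' deposited tables included, the 5 genes in 4 comparisons had 327 values. Of these 292 kept their direction and their side of the threshold, 6 passed it newly, all for *Izumo1r*, and 29 changed sign without passing. Some fits are counted more than once. Between the tissues, leaving out the spleen library numbered 2 is also among the fits leaving out 1 library. For 4-8, title style in the fit equals leaving out islet replicate 2. The values are thus not independent checks. With title style in the fit, *Izumo1r* passed between the tissues for 4-8 (0.44) and 12-4.4m1 (0.85), and for 12-4.4m1 also with the replicate block (0.47, limma adjusted p = 0.0393) and in the authors' Cuffdiff table (0.59, q = 0.0296); its values over fits leaving out 1 library were 0.28 to 0.72 for 12-4.4m1 and 0.12 to 0.44 for 4-8. The cause of these changes was not tested. None of the values that changed sign passed. *Foxp3* between the TCRs in islets was 0.0025 with median centring, 0.11 with the replicate block, 0.022 with title style, 0.024 with *Xist* level, 0.0069 by Cuffdiff and -0.12 to 0.058 over fits leaving out 1 library. *Izumo1r* there was -0.20 with title style, -0.14 with *Xist* level, -0.00075 by DESeq2 and -0.19 to 0.21 leaving out 1 library. *Ikzf4* in spleen was 0.29 with *Xist* level and -0.17 to 0.17 leaving out 1 library, and for 4-8 between the tissues -0.068 to 0.29. *Foxp3* between the tissues was 0.00027 for 4-8 by Cuffdiff, and -0.014 for 12-4.4m1 without the spleen library numbered 2 (-0.014 to 0.19 leaving out 1 library). *Nrp1* for 12-4.4m1 was 0.075 without that library, 0.072 with *Xist* level, 0.11 by Cuffdiff and -0.28 to 0.21 leaving out 1 library.

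Counts of all genes called moved more. In islets 30 became 15 with a minimum count of 50 (fewer genes tested), 53 with the replicate block, 52 with title style, 50 with *Xist* level, 57 by Cuffdiff and 9 to 44 leaving out 1 library (9 without 12-4.4m1 replicate 1, 11 without 12-4.4m1 replicate 2). In spleen 39 became 17 without the variance trend, 78 with the replicate block, 11 without both libraries numbered 2, 19 with *Xist* level, 21 by DESeq2, 84 by Cuffdiff and 14 to 56 leaving out 1 library (23 and 14 without 4-8 replicate 2 or 3, 16 without 12-4.4m1 replicate 2). For 4-8 between the tissues 717 became 1212 with title style, 370 without the spleen library numbered 2, 1160 by Cuffdiff and 306 to 1211 leaving out 1 library (1211 without islet replicate 2, 306 and 326 without spleen replicate 1 or 3). For 12-4.4m1 575 became 313 without the spleen library numbered 2, 938 by Cuffdiff and 288 to 610 leaving out 1 library (288 without spleen replicate 1). Deviations of same-numbered libraries correlated at -0.04 and 0.13 in islets, -0.12 to -0.05 for 4-8 and -0.03 to 0.04 for 12-4.4m1. Other pairs there reached 0.21, 0.13 and 0.04 in that order. In spleen same-numbered libraries correlated at 0.07 to 0.12, above all other pairs (-0.09 to 0.01). The main fit has no replicate block, and what the numbers mark is not stated. The islet block used numbers 1 and 2 only. *Nrp1* has no value with a minimum count of 50 in the islet TCR and 4-8 tissue tables, where it lay below it, nor by Cuffdiff for 4-8 between the tissues, where no test was made. The mean normalized count was below 100 for *Nrp1* and *Ikzf4* in all 4 tables and above it for the other 3 genes.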
